A study of Ovis aries with 16 samples.

Results

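CNN1 (calponin), MYL9 (the regulatory myosin light chain of smooth muscle) and MYLK (the myosin light chain kinase) are the 3 genes of the smooth muscle contractile apparatus examined here, in the left ventricle of late-gestation fetal sheep. They were chosen by their responses to the treatments in these same arrays, so their treatment values below are a description and carry no test. Of 15008 non-control probes on the array, 4 belonged to these genes by name or description, and a further MYL9 probe was linked to the first only by a shared sequence cluster. All 5 were among the 8970 probes tested and were well above background on 16 of 16 arrays, with none saturated. The MYL9 probe carries no gene symbol in the files and is identified by a description that names the smooth muscle isoform of the regulatory light chain.

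Twin-bearing ewes were operated on for fetal catheters at 125 to 126 days (term is 145 days), and 1 twin of each pair was then treated for 5 days. In twin sets 1 to 4 the treated fetus received losartan, a blocker of the type 1 angiotensin II receptor (AT1), and in sets 5 to 8 it received angiotensin II, the peptide that acts on this receptor. The other twin was untreated, which gave 4 groups of 4 fetuses, each fetus on 1 array. Whether untreated twins carried catheters or a vehicle infusion is not given in the labels used here. The labels call the infusions both daily and continuous and the tissue both free wall and free wall with septum, and this could not be settled.

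Smooth muscle contracts when calcium bound to calmodulin switches on MYLK, which phosphorylates MYL9 and so lets myosin cycle on actin. A myosin phosphatase reverses that step, and CNN1 binds actin and restrains the myosin ATPase. In the ventricle these proteins are best known from the walls of coronary vessels, and myofibroblasts can carry them too. Angiotensin II constricts vessels through AT1 on vascular smooth muscle.

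The probe sequences, read from the deposited files, are what the values were measured with, and they were not mapped to transcripts here. The CNN1 probe and the named MYL9 probe each hold the polyadenylation signal AATAAA, at bases 36 and 54 of their 60 bases, and 30 bases around it are shown with the signal in capitals. The cluster probe of MYL9 is shown whole, with its only stop triplet in any of 3 frames in capitals. The MYLK probes are shown whole; they start at bases 1162 and 914 of a partial coding record.
CNN1: tcactggagcacAATAAAtggctgtaaaat
MYL9, named probe: gtgtatgtctgtggctggggtgaAATAAAg
MYL9, cluster probe: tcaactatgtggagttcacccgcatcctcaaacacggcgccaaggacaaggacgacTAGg
MYLK, brighter probe: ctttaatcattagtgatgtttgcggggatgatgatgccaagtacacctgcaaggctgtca
MYLK, dimmer probe: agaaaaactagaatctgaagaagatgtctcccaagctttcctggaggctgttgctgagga
Which products of the MYLK gene these probes read, and whether related genes bind to any of the 5, was not tested.

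All levels are log2 processed signals minus the 75th percentile of their array, and a twin ratio is the treated fetus minus its untreated twin on that scale. The 75th percentile was 1099 to 1670 fluorescence units, and 8601 to 9615 probes were well above background on an array. On the first principal component, with 32.1% of the variance, 3 arrays stood apart, all in array row 2 of slide 2. They were those of the untreated twin of set 2 and of the angiotensin II fetuses of sets 7 and 8. The losartan fetus of set 4, in the same row, did not stand apart (-8.31, against 30.1 to 39.8 for the 3). The bright corner control spots of the 3 arrays read 17.3 to 17.7 in log2 signal, against 14.5 to 15.4 on the other arrays. What set these arrays apart was not tested. Slide 1 held 1 losartan and 3 of the matching untreated arrays, slide 2 held 3 and 1, and each slide held 2 of each group of the angiotensin II arm. Of 8 markers of vascular smooth muscle, these 3 genes were the only ones among the named probes; the other markers, such as ACTA2, MYH11 and TAGLN, and all 7 pericyte markers were not analysed here. The tissue is given by the labels. Of 16 cardiomyocyte markers only MB (myoglobin) was measured, and its level was 5.61 to 6.31 over the 16 arrays.

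MYL9, the light chain that the kinase phosphorylates, was lowest in losartan fetuses, intermediate in untreated twins and highest in angiotensin II fetuses. With losartan its levels were 3.95, 3.70, 3.40 and 3.18 in sets 1 to 4, and in the untreated twins they were 4.99, 4.28, 4.75 and 4.45. In the untreated twins of sets 5 to 8 its levels were 4.46, 4.56, 4.44 and 4.61, and with angiotensin II they were 5.05, 5.58, 5.62 and 5.53. The highest losartan level lay below all 8 untreated levels, and the lowest angiotensin II level lay above all of them. Such a separation into 3 tiers was met by 2 of 8967 probes (0.0223%), and the other probe has no gene name here. These are bulk tissue levels, in which fewer cells of a type and less RNA per cell cannot be told apart.

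As twin ratios, MYL9 was -1.05, -0.58, -1.35 and -1.27 with losartan, lower in 4 of 4 sets (mean -1.06 ± 0.34, SD, n = 4). With angiotensin II the ratios were 0.59, 1.02, 1.18 and 0.92, higher in 4 of 4 sets (mean 0.93 ± 0.25, SD, n = 4). The fitted estimates, with the twin set as a block, were -1.06 with losartan, a 2.09-fold lower level, and 0.93 with angiotensin II, a 1.90-fold higher one (SE 0.14 for both). The smallest fall was that of set 2, which holds 1 of the 3 arrays that stood apart. Without sets 2, 7 and 8 the mean ratios were -1.22 (n = 3) and 0.81 (n = 2).

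The cluster probe of MYL9, linked to the named probe only by a sequence cluster, gave the same order of groups. It was read on the same arrays that chose MYL9, so it is no independent check. The ratios of the MYL9 probes correlated at r = 0.98 over 8 sets, as a description. Its mean level was -1.06 ± 0.38 with losartan and 0.14 ± 0.32 in the matching untreated twins (SD, n = 4). In the angiotensin II arm it was 0.00 ± 0.26 untreated and 0.96 ± 0.48 treated (SD, n = 4). Its losartan ratios, from -1.33 to -1.10, had an SD of 0.10, and its angiotensin II ratios, from 0.27 to 1.51, had an SD of 0.52. The set 2 ratio was -1.10 at this probe against -0.58 at the named probe. Its angiotensin II levels lay above all levels of their own twins, but the level of set 5 (0.36) lay below that of the untreated twin of set 1 (0.52), so the 3 tiers were not complete. Without sets 2, 7 and 8 its mean ratios were -1.24 (n = 3) and 0.72 (n = 2).

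CNN1, the actin-bound restraint on myosin, had the same direction in each arm and a wider spread. With losartan its levels were 1.56, 1.94, 2.08 and 1.84 in sets 1 to 4, against 3.49, 2.94, 3.72 and 2.95 in the untreated twins. In the angiotensin II arm the untreated twins had 3.32, 2.09, 3.45 and 4.13 in sets 5 to 8, and the treated fetuses 4.19, 4.22, 4.13 and 4.80. All losartan levels lay below all 8 untreated levels, by a margin set by the untreated twin of set 6 (2.09 against 2.08). On the upper side the groups met, since the untreated twin of set 8 and the angiotensin II fetus of set 7 were both at 4.13.

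The CNN1 twin ratios were -1.93, -0.999, -1.64 and -1.11 with losartan (mean -1.42 ± 0.44, SD, n = 4). With angiotensin II they were 0.87, 2.13, 0.68 and 0.67 (mean 1.09 ± 0.70, SD, n = 4). The fitted estimates were -1.42 with losartan, a 2.68-fold lower level, and 1.09 with angiotensin II, a 2.12-fold higher one (SE 0.25 for both). Set 6 gave the largest rise, and its untreated twin had the lowest CNN1 of all untreated fetuses, while its treated level was near those of sets 5 and 7. Without set 6 the angiotensin II estimate was 0.74. Sets 2, 7 and 8 held the smallest ratio of the losartan arm and the 2 smallest of the other arm, and without them the means were -1.56 (n = 3) and 1.50 (n = 2).

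**Figure D1:**
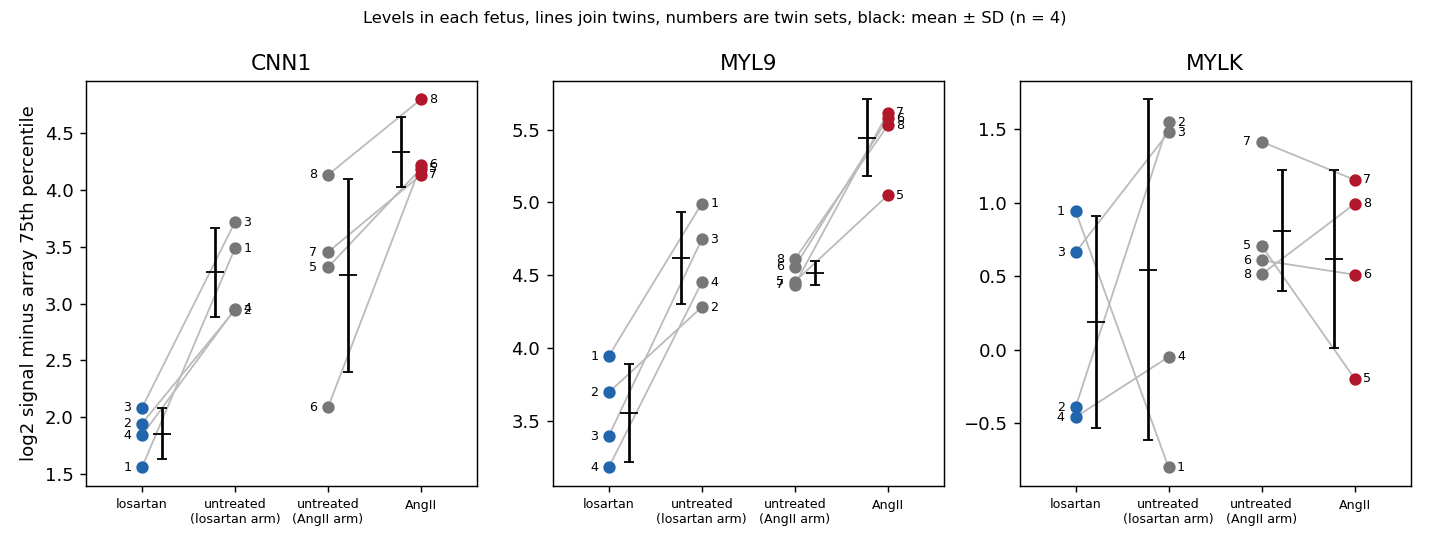
Level of CNN1, MYL9 (named probe) and MYLK (brighter probe) in each fetus, as log2 signal minus the array's 75th percentile, by group; lines join twins, numbers are twin sets, and black marks give the mean ± SD (n = 4). MYL9 falls into 3 tiers, CNN1 has its losartan levels at 2.08 or below and its angiotensin II levels at 4.13 or above, and the groups overlap for MYLK.

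MYLK, the kinase, had no direction shared by all sets of an arm. The brighter probe read 0.94, -0.39, 0.66 and -0.46 with losartan and -0.80, 1.55, 1.48 and -0.05 in the untreated twins of sets 1 to 4. It read 0.71, 0.61, 1.42 and 0.51 in the untreated twins of sets 5 to 8 and -0.20, 0.51, 1.16 and 0.99 with angiotensin II. Levels of all 4 groups overlapped. The highest and the lowest level of all 16 arrays were both in untreated twins of the losartan arm, those of sets 2 and 1.

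The MYLK twin ratios were 1.75, -1.94, -0.82 and -0.41 with losartan (mean -0.36 ± 1.54, SD, n = 4) and -0.90, -0.10, -0.26 and 0.48 with angiotensin II (mean -0.20 ± 0.57, SD, n = 4). It was lower in 3 of 4 sets of each arm, and in both arms the mean ratio was smaller than the spread between sets. The fitted estimates were -0.36 and -0.20 (SE 0.47 for both). The losartan estimate was -1.06 without set 1, 0.17 without set 2 and -0.20 without set 3, and the angiotensin II estimate was 0.04 without set 5 and -0.42 without set 8. Fits within slides 1 and 2, with no twin block, gave 0.45 and -1.52 with losartan and -0.86 and 0.46 with angiotensin II. In set 1 the MYLK ratio exceeded those of 99.9% of tested probes, and in set 2 it exceeded those of 0.636%, so the gene moved far in single pairs and in opposite directions. Its dimmer probe gave 1.33, -1.78, -0.83 and -0.61 with losartan and -0.77, -0.00, -0.33 and 0.19 with angiotensin II, and the ratios of the probes correlated at r = 0.99 over 8 sets, as a description.

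The mean MYLK ratio of sets on a shared slide differed from that of sets on different slides. Each mean covers 2 sets. In sets 1, 4 and 7 the treated fetus was on slide 2 and its twin on slide 1, and in set 5 the reverse. The means for different slides are therefore not alike in layout between the arms, and their directions cannot be compared. With losartan set 1 was at 1.75 and set 4 at -0.41 on different slides, against -1.94 and -0.82 in sets 2 and 3. The losartan sets whose twins shared a slide, 2 and 3, had a mean ratio of -1.38, and those on different slides, 1 and 4, had 0.67. For MYL9 the same means were -0.97 and -1.16, and for CNN1 they were -1.32 and -1.52. In the angiotensin II arm the sets on a shared slide, 6 and 8, against 5 and 7 had 0.19 and -0.58 for MYLK, 0.97 and 0.89 for MYL9, and 1.40 and 0.77 for CNN1. Without sets 2, 7 and 8 the MYLK means were 0.17 with losartan and -0.50 with angiotensin II. Adding slide to the twin-set fit moved the MYLK losartan estimate (brighter probe) from -0.36 to -0.80. The angiotensin II estimate stayed at -0.20, and the difference of the effects moved from 0.16 to 0.61. None of these passed the threshold in limma. How much of any single MYLK ratio came from the slide was not tested.

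**Figure D2:**
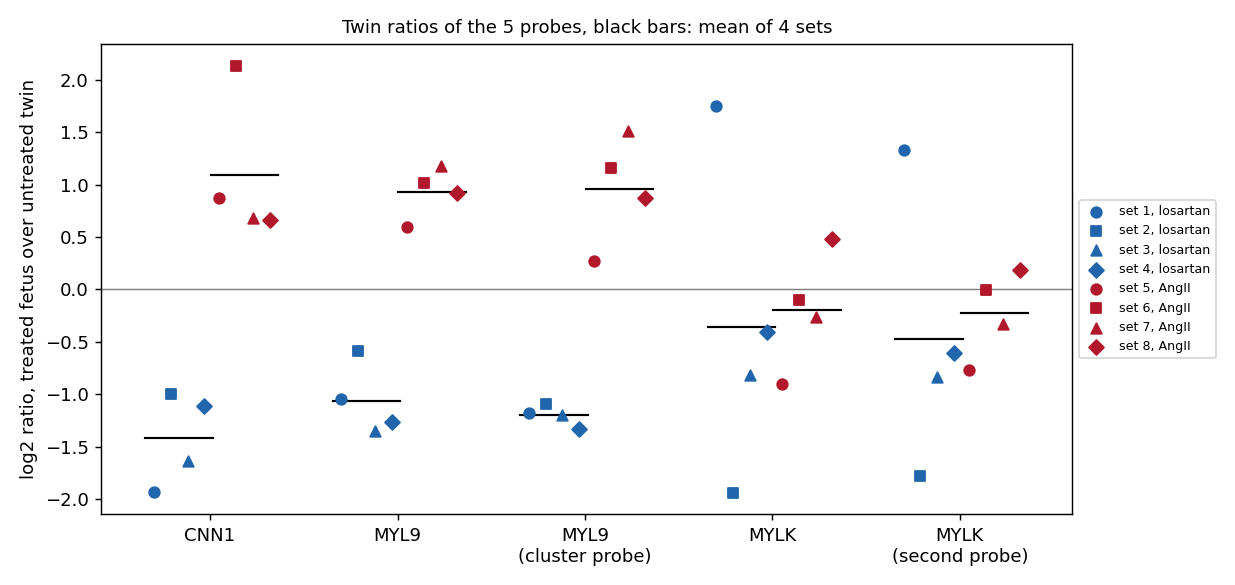
Log2 ratio of the treated fetus over its untreated twin for the 5 probes, by twin set, with black bars for the mean of 4 sets. For CNN1 and both MYL9 probes every losartan ratio is below 0 and every angiotensin II ratio above it, while MYLK runs from -1.94 to 1.75 with losartan.

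In the fit over all 8970 tested probes in limma (two-sided, Benjamini-Hochberg adjusted p under 0.05), CNN1 and both MYL9 probes were among the 89 probes that passed lower with losartan (0.992%). No MYLK probe passed. With angiotensin II 0 of 8970 probes passed (0%), these genes included, while 938 probes had an unadjusted p under 0.05 in limma. CNN1 and both MYL9 probes were among the 117 that passed higher when the losartan effect was taken from that of angiotensin II (1.3%), with differences of 2.51 (SE 0.35) for CNN1, 1.99 (SE 0.20) for the named MYL9 probe and 2.16 (SE 0.24) for the cluster probe. The MYLK differences were 0.16 (SE 0.66) and 0.24 (SE 0.55). Since the genes were selected on these contrasts, nothing is read from these counts. The losartan call of CNN1 was lost without set 1, 3 or 4 (estimates -1.25, -1.35 and -1.52) and with the slide as a further block (-1.35), and that of MYL9 was lost without set 3 or 4 (-0.97 and -0.99). Both calls were also lost with no twin block and in fits within slide 1 (-1.30 and -1.33) and slide 2 (-1.16 and -0.67), each with a single array in 1 group of the losartan arm.

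The groups of raw levels and the signs give the same backdrop. Losartan levels lay wholly below those of their own untreated twins for CNN1 and both MYL9 probes, as for 366 of 8968 probes (4.08%). Angiotensin II levels lay wholly above those of their own twins for both MYL9 probes and not for CNN1, as for 148 of 8966 probes (1.65%). A fall in 4 of 4 losartan sets with a rise in 4 of 4 angiotensin II sets was seen for CNN1 and both MYL9 probes, as for 277 of 8968 probes (3.09%).

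The ranks of single sets varied, and a rank depends on the spread of all ratios in its set as well as on the gene. For the named MYL9 probe the ratio of 0.59 in set 5 ranked at 97.7%, and that of 0.92 in set 8 at 96.4%. Ranked among the ratios of all tested probes in a set, from lowest to highest, the named MYL9 probe lay at 1.23%, 12.01%, 0.702% and 1.30% in sets 1 to 4. In the angiotensin II sets it lay at 96.4% to 99.0%. CNN1 lay at 0.134%, 4.60%, 0.502% and 1.84% in sets 1 to 4 and at 99.2%, 99.9%, 91.7% and 92.8% in sets 5 to 8.

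The untreated twins of the arms, a comparison on which the genes were not chosen, gave no difference past the threshold for any of the 5 probes. The difference, angiotensin II arm minus losartan arm, was -0.03 for CNN1 (95% interval -0.89 to 0.83) and -0.10 for the named MYL9 probe (-0.46 to 0.25). For the brighter MYLK probe it was 0.27 (-0.85 to 1.38). The limma adjusted p was 1.00 for all 5 probes. Over all probes 0 of 8970 passed in limma (0%), and 300 had an unadjusted p under 0.05. These intervals do not show equal levels.

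Untreated fetuses differed more in CNN1 and MYLK than in most probes, while the MYL9 probes lay nearer the median probe. Over the 8 untreated arrays the SD of CNN1 was 0.61, higher than that of 96.5% of tested probes, with levels over a 4.13-fold range. The MYLK probes had SDs of 0.82 and 0.73, at 98.7% and 98.0%, and ranges of 5.09-fold and 4.40-fold. The named MYL9 probe had an SD of 0.22, against 0.22 for the median probe, and a 1.64-fold range. The cluster probe of MYL9 had an SD of 0.28, higher than that of 68.4% of tested probes, and a 1.82-fold range. The low CNN1 of the untreated twin of set 6 and the low MYLK of that of set 1 were in different fetuses.

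Across untreated fetuses none of the 3 pairs of genes passed a permutation test of covariation. CNN1 and MYL9 levels had r = 0.34 (exact permutation p = 0.408, two-sided, adjusted p = 0.612 over 3 pairs, n = 8) and a Spearman correlation of 0.60 (exact permutation p = 0.132, adjusted 0.324). Without sets 6 and 8, the farthest in CNN1, r was 0.68, and after removal of slide means it was 0.53. MYL9 and MYLK had r = -0.60 (exact permutation p = 0.118, adjusted p = 0.354) and a Spearman correlation of -0.50 (exact permutation p = 0.216, adjusted p = 0.324), with r = -0.59 without the 2 farthest arrays and -0.56 after removal of slide means. CNN1 and MYLK had r = 0.02 (exact permutation p = 0.966, adjusted p = 0.966) and a Spearman correlation of -0.17 (exact permutation p = 0.703, adjusted p = 0.703), with r = 0.07 without the 2 farthest arrays and -0.05 after removal of slide means.

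Within arms the correlations of the ratios hung on single sets. After each arm's mean was taken off, the twin ratios of CNN1 and MYL9 had r = 0.25 and a Spearman correlation of 0.19 over 8 sets, those of CNN1 and MYLK r = -0.41 and a Spearman correlation of -0.48, and those of MYL9 and MYLK r = -0.17 and a Spearman correlation of 0.02. These are descriptions, since both ratios of a set come from the same pair of arrays. Without set 2, r was -0.01 for CNN1 and MYL9 and 0.62 for MYL9 and MYLK, and without set 6 it was -0.81 for CNN1 and MYLK. It was -0.12 for CNN1 and MYLK without set 1, and without sets 2, 7 and 8 it was 0.48 for CNN1 and MYL9, -0.12 for CNN1 and MYLK and 0.79 for MYL9 and MYLK. The order of the 3 correlations therefore cannot be read. The set with the largest CNN1 rise, set 6, had the second largest MYL9 rise, and the set with the largest CNN1 fall, set 1, had the third largest MYL9 fall. The fetus pair with the largest MYLK rise, set 1, had that largest CNN1 fall.

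**Figure D3:**
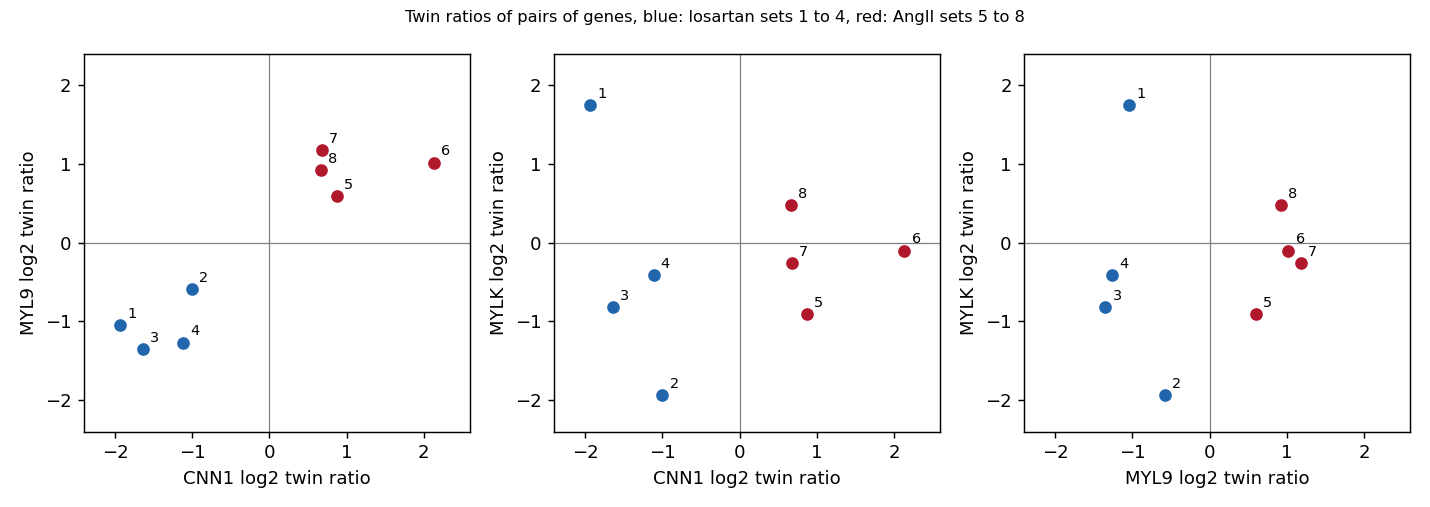
Log2 twin ratios of each pair of genes, with 1 point per twin set (losartan sets 1 to 4, angiotensin II sets 5 to 8). CNN1 and MYL9 fall into opposite corners by arm (arm-centred r = 0.25), and MYLK runs from -1.94 to 1.75 with losartan and from -0.90 to 0.48 with angiotensin II.

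Among 485 tested named genes, those with twin ratios most like CNN1 over the 8 sets were DNMT1, the maintenance DNA methyltransferase (r = 0.94, arm-centred r = 0.61), and MX1, an interferon-induced GTPase (r = 0.93, arm-centred r = 0.90). JUND, an AP-1 transcription factor, had r = 0.93 (arm-centred r = 0.50), and INHBA, which encodes the activin A subunit, had r = 0.92 (arm-centred r = 0.17). MYL9 ranked 5 among them (r = 0.92, arm-centred r = 0.25). Those most like MYL9 were TYMS, the thymidylate synthase (r = 0.99, arm-centred r = 0.87), and the cyclin CCNA2 (0.97 and 0.66). The mitotic kinase CDK1 (0.97 and 0.59) and the replication clamp PCNA (0.95 and 0.28) came next, and CNN1 ranked 12 (0.92 and 0.25). Those most like MYLK were the lysosomal enzyme HEXA (0.88 and 0.89), the mitochondrial glycerol phosphate dehydrogenase GPD2 (0.83 and 0.85), the receptor TGFBR2 (0.81 and 0.82) and the innate immune sensor NOD2 (0.79 and 0.81). For CNN1 and MYL9 the r over 8 sets mostly reflects the opposite arms, so the arm-centred r stands beside it. The likeness was measured on the arrays that chose the genes and is a description.

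Of the genes that work with these 3, 18 were measured, and none passed in limma in either arm or in the difference. Of the 18, 14 had losartan estimates below 0 (median -0.08, against 0.01 for all tested probes) and 12 had angiotensin II estimates above 0 (median 0.08, against -0.03). The smallest limma adjusted p was 0.110 with losartan, 0.459 with angiotensin II and 0.0877 in the difference. All adjusted values in the next paragraphs are from the same limma fit over 8970 probes.

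Of 28 contractile and cytoskeletal partners 4 were measured, and all 4 had losartan estimates below 0 (median -0.34) and 1 an angiotensin II estimate above 0 (median -0.04). MYL6, the essential light chain that shares the myosin head with MYL9, had estimates of -0.36 (SE 0.10, adjusted p = 0.162, limma) and 0.20 (SE 0.10, adjusted p = 0.487, limma), lower in 4 of 4 and higher in 4 of 4 sets. VIM, the intermediate filament vimentin, had -0.47 and -0.02, and ACTG1, a cytoskeletal actin, -0.32 and -0.11. TPM1, a tropomyosin, had -0.07 and -0.06. The other probes of VIM and ACTG1 had losartan estimates of -0.54 to -0.45, and none passed. Of 17 other members of the calponin, light chain and light chain kinase families, MYL6 and MYL11, the fast skeletal regulatory light chain, were measured, and MYL11 had estimates of 0.01 and 0.03 (list medians -0.17 and 0.11).

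Of 25 genes that set light chain phosphorylation 3 were measured, with losartan estimates below 0 in 3 of 3 (median -0.22) and angiotensin II estimates above 0 in 3 of 3 (median 0.24). PPP1R12A, the targeting subunit of myosin phosphatase, which opposes MYLK, had -0.52 (SE 0.29, adjusted p = 0.511, limma) and 0.81 (SE 0.29, adjusted p = 0.459, limma). Its ratios were -0.22, -1.54, -0.28 and -0.03 with losartan and 0.26, 0.13, 1.62 and 1.22 with angiotensin II. The largest of each arm were in sets 2, 7 and 8, which hold the 3 arrays that stood apart, and the part of those arrays was not tested. CALM2, a calmodulin gene, had -0.22 and 0.24, and RHOA, a small GTPase whose signal inhibits the phosphatase, had -0.14 and 0.22. The other 2 RHOA probes had angiotensin II estimates of -0.14 and -0.06, so its direction there rests on 1 probe.

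Of 30 calcium, channel and receptor genes 4 were measured (medians -0.06 and 0.07). AGTR1, the receptor that losartan blocks, had -0.08 and -0.00 (SE 0.26 for both). GUCY1B1, a subunit of the nitric oxide receptor that relaxes vessels, had -0.36 (SE 0.13, adjusted p = 0.278, limma) and 0.27 (SE 0.13, adjusted p = 0.478, limma), with the same signs at its other probe. The endothelin receptors EDNRA (-0.04 and 0.14) and EDNRB (0.10 and -0.08) lay near 0, and the other EDNRA probe had the opposite signs.

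Of 31 transcription and growth factors of the smooth muscle programme 6 were measured (medians -0.02 and 0.08). TGFB2, a growth factor that promotes the contractile state, had -1.13 (SE 0.36, adjusted p = 0.222, limma) and 0.76 (SE 0.36, adjusted p = 0.481, limma). Its ratios were -0.19, -2.33, -1.60 and -0.41 with losartan and 0.14, 0.16, 1.64 and 1.10 with angiotensin II, again largest in sets 2, 7 and 8. EGR1, an early growth response factor, had 0.23 and -0.26, the reverse of CNN1 and MYL9, and JAG1, a Notch ligand, had -0.00 and 0.21. SMAD4 and TGFBR2, which carry TGF-beta signals, had estimates between -0.06 and 0.14. The other SMAD4 probe had 0.06 with losartan and -0.11 with angiotensin II, the opposite signs of the probe used.

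**Figure D4:**
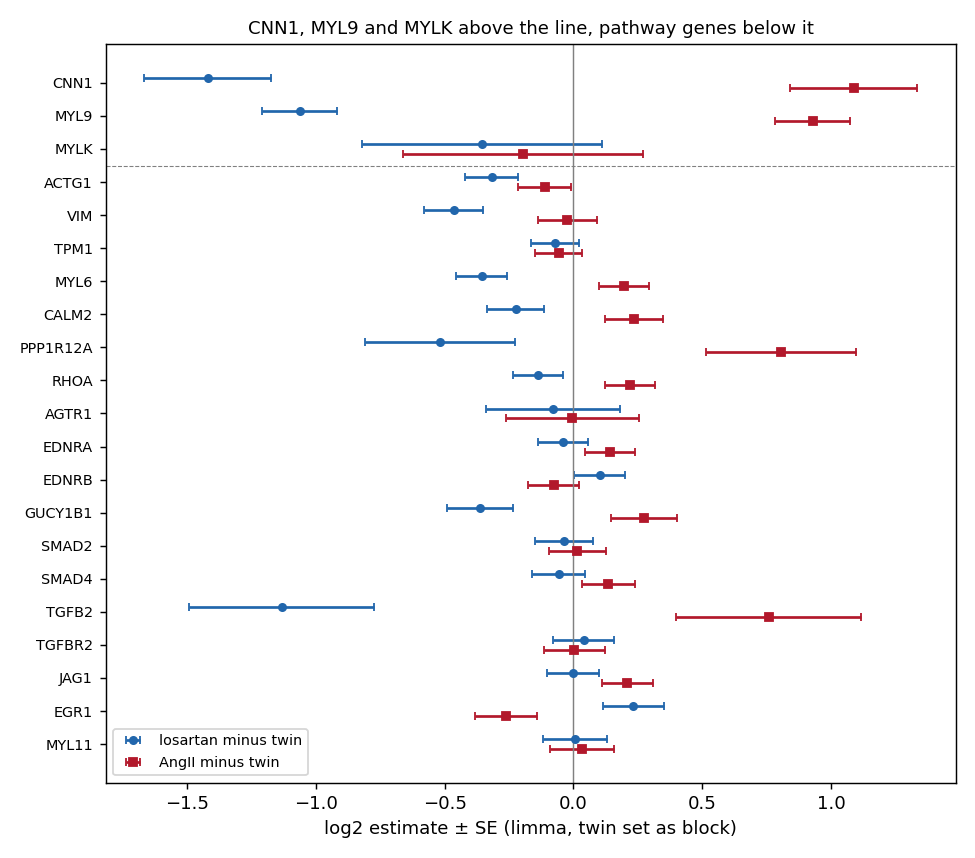
Fitted log2 estimate ± SE (limma, twin set as a block) of each treatment against untreated twins, for CNN1, MYL9 and MYLK above the dashed line and 18 pathway genes below it. CNN1 and MYL9, which were chosen by these responses, lie at -1.42 and 1.09 and at -1.06 and 0.93. The pathway genes lie between -1.13 and 0.81, with TGFB2 at -1.13 and 0.76.

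Markers of other cell types were read beside these genes. All 4 measured of 10 fibroblast markers (COL1A1, COL1A2, COL3A1 and DCN) had losartan estimates below 0 (median -0.29), and 1, COL1A2, had an angiotensin II estimate above 0 (0.54), with none past the threshold in limma. The other probes of COL1A1 and COL3A1 had angiotensin II estimates of -0.02 to 0.71, so their direction there depends on the probe. The summed level of the 4 markers was 6.55 to 7.07 with losartan against 6.89 to 7.27 in the twins, and 6.28 to 6.83 with angiotensin II against 6.54 to 6.93. The 2 measured of 10 endothelial markers, PECAM1 and KDR, had medians of -0.19 and -0.02, with summed levels of 1.62 to 1.98 with losartan and 1.68 to 2.04 in the twins. In the angiotensin II arm their summed levels were 1.63 to 2.04 treated and 1.94 to 2.10 untreated. MB, 1 of 16 cardiomyocyte markers, had estimates of 0.07 and -0.18.

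Of the blood cell markers, 2 neutrophil genes rose with losartan. All 3 measured of 8 neutrophil markers had losartan estimates above 0 (median 2.46), and CATHL1B and CATHL3 rose past the threshold (2.46, adjusted p = 0.0482, and 2.52, adjusted p = 0.0261, limma), while the other CATHL1B probe (2.41, adjusted p = 0.0638, limma) and BAC5 (2.23, adjusted p = 0.116, limma) did not pass. Their summed level was 1.58 to 4.01 with losartan, against -0.35 to 1.18 in the twins. In the angiotensin II arm their median was 0.45, with a summed level of -0.41 to 2.53 against -0.63 to 1.66. HBB, 1 of 7 erythroid markers, had estimates of 1.15 and -0.96, neither past the threshold in limma. The 2 measured of 11 macrophage and leukocyte markers had medians of -0.16 and -0.12 and the 2 measured of 4 adipocyte markers 0.38 and -0.16. The part of cell composition in the CNN1, MYL9 and MYLK values was not tested.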

How the data were processed

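Per the file headers, Agilent Feature Extraction 10.7.3.1 gave each spot's background-subtracted intensity, not normalized across arrays. The authors' value table lies near a natural log scale of signal, by a method not stated, and served as an alternative. Control spots and outliers were dropped, and repeat spots of a probe averaged. Values were log2 processed signal minus the array's 75th percentile, and probes well above background on all arrays of at least 1 group were tested. limma 3.58.1 (R 4.3.3) was fitted on 16 arrays with the twin set as a block, giving 6 residual degrees of freedom, and on the 8 untreated arrays without a block. The fit was tested on simulated data. The brightest tested probe stood for a gene. Gene symbols were matched to RefSeq's table for assembly ARS-UI_Ramb_v3.0, and probes without a name, 13413 of 15008, entered the fit but no list. The array number limits the precision.

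The 3 genes and the gene lists were chosen with earlier results of these data known. The pairing comes from the labels, which give the twin sets. Genes were named by a rule: the 3 genes, the 4 named genes most like each of them in twin ratios, up to 4 genes per pathway list by smallest p in either arm, lists of 5 or fewer measured genes in full, and up to 2 markers per other cell type, with fibroblast and neutrophil markers named in full under the list rule. Alternatives covered background correction, scaling, filters, slide, block, probes and arrays left out. Sequences were copied from the deposited files. Figures were drawn with matplotlib 3.10.9.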

Additional observations from a re-analysis of the deposited data

Results flagged for a closer look

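Of 30 groups of 4 values (levels by group and twin ratios by arm for the 5 probes), 4 held a value far from the other 3, and chance gives such a value in about 1 group in 20. The angiotensin II fetus of set 8 had a CNN1 level of 4.80, above the other 3 of its group. The angiotensin II fetus of set 5 had a MYL9 level of 5.05, below the other 3. The untreated twin of set 7 had a level of -0.13 at the dimmer MYLK probe, above the other 3. The CNN1 twin ratio of set 6 was 2.13, above the other 3 of the angiotensin II arm.

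Opposite directions in the arms, with every losartan set below 0 and every angiotensin II set above 0, were seen for CNN1 (difference of the effects 2.51) and for MYL9 (1.99 at the named probe and 2.16 at the cluster probe). These genes were selected on that pattern, so it was not tested. Among the 18 pathway genes the same pattern was seen for MYL6 (0.55), PPP1R12A (1.32), GUCY1B1 (0.64) and TGFB2 (1.89). None of these differences passed in limma (adjusted p from 0.0877 to 0.137). Over all probes the pattern was seen for 277 of 8968 (3.09%). The ratios of PPP1R12A and TGFB2 were largest in sets 2, 7 and 8, which hold the 3 arrays that stood apart.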

How the results depend on the processing

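CNN1 and MYL9 kept their sign in each of 21 alternatives in both arms: CNN1 ran from -1.56 to -1.16 with losartan and from 0.74 to 1.50 with angiotensin II, and MYL9 from -1.33 to -0.67 and from 0.81 to 1.04. With losartan CNN1 passed in 14 and MYL9 in 16 of the 21. Both lost the call without twin set 3 (-1.35 and -0.97) or 4 (-1.52 and -0.99), with no replicate block and in both fits within a slide, and CNN1 also lost it without set 1 (-1.25) and with the slide as a further block (-1.35). With angiotensin II neither passed in any. In the difference CNN1 passed in 19 and MYL9 in 20. The fits within a slide had a single losartan array (slide 1) or a single untreated array of that arm (slide 2), assumed to vary like the others. Within slide 2 MYL9 was at -0.67 with losartan, and MYLK at 0.46 with angiotensin II and 1.98 in the difference; within slide 1 MYLK was at -0.86 with angiotensin II. The MYLK losartan sign held in 18 of 21, and its angiotensin II sign in 19. Counts over all probes with losartan, 109 in the main analysis, were 434 in the authors' value table, 57 for probes well above background on all arrays, 71 with the slide as a further block, 42 and 546 within slides 1 and 2, 0 with no replicate block, and 33 (without set 3) to 99 when 1 twin set was left out, with 64 without set 1 and 49 without set 4. Counts for the difference, 148 in the main analysis, were 1734, 98, 427, 38 and 1880 and 3 in that order, 75 without sets 2, 7 and 8, and 48 to 109 when 1 set was left out. With angiotensin II 353 passed within slide 2 and 1 without sets 2, 7 and 8. Pathway genes past the threshold, 0 in the main analysis, were 2 with losartan (MYL6 and TGFB2) and 3 in the difference (MYL6, PPP1R12A and TGFB2) in the authors' value table, 1 (TGFB2) and 2 (PPP1R12A and TGFB2) with the slide as a further block, 1 and 1 (TGFB2) within slide 1, and 2 (PPP1R12A and TGFB2), 1 with angiotensin II (PPP1R12A) and 4 in the difference (these with MYL6 and CALM2) within slide 2. Between untreated twins 0 to 1 probe passed when 1 array was left out, and the differences ran from -0.32 to 0.36 for CNN1, from -0.22 to 0.022 for MYL9 and from -0.18 to 0.60 for MYLK, with the sign turned for all 3 without set 1 (0.044, 0.022 and -0.18) and for CNN1 without set 3 (0.12) or 6 (0.36). The arm-centred r of MYL9 and MYLK was 0.79 without sets 2, 7 and 8. The cause of these shifts was not tested.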
